A study of Mus musculus with 93 samples.

Results

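Late Immature Neuron and Mature Neuron are the last 2 of the 5 stages into which the labels sort single cells of the mouse olfactory epithelium, and the step between them was described here across all genes. The stage labels alone chose the cells: 13 Late Immature Neuron and 25 Mature Neuron cells, 38 of the 85 cells of the series. All were picked by hand from dissociated epithelium of C57BL/6 mice, and the labels name no treatment or genotype for either stage. Each library was made from the poly(A) RNA of 1 cell by oligo(dT)-primed cDNA synthesis and PCR. Levels are those of a cell's first library, and 5 of the 38 cells also had a technical repeat library, which was kept apart. No animal is named for any cell, so a stage counted as 1 sample, the SD given is the spread over cells, and no test between stages was possible.

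An olfactory sensory neuron is born in the epithelium, grows an axon to the olfactory bulb and then builds the cilia on which odorants are detected. Immature neurons are known for the growth cone protein Gap43 and the G protein subunit Gng8, and mature neurons for olfactory marker protein, Omp. In a mature neuron, 1 odorant receptor activates the G protein Golf, adenylyl cyclase 3 (Adcy3) makes cyclic AMP, a cyclic nucleotide gated channel opens, a calcium-activated chloride channel amplifies the current, and phosphodiesterases such as Pde4a remove the cyclic AMP.

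The unit of every level below is FPKM, fragments scaled to transcript length and to the size of the library, and a gene counted as detected from an FPKM of 1 upward. Between 3014 and 5559 genes were detected in a Late Immature Neuron cell (median 4525) and between 2648 and 4739 in a Mature Neuron cell (median 3534). For a gene of 1 kb, each FPKM unit was worth 1.07 to 9.84 fragments in Late Immature Neuron libraries and 0.610 to 9.77 in Mature Neuron libraries. The cells come in ranges of cell numbers that hold the stages unevenly. Cells D29 to D97 gave 1 Late Immature and 5 Mature Neuron cells, D168 to D205 gave 2 and 0, D213 to D274 gave 4 and 16, and D316 to D434 gave 6 and 4. What a range stands for is not given in the sources used here, and the comparison was therefore repeated within D213 to D274 and within D316 to D434, which share no cells. Of the 38 cells, D205 (Late Immature) and D329 (Mature) stood apart by a summed odorant receptor FPKM of 21.4 and 31.5. Sustentacular cell genes were also present: Cbr2 or Cyp2g1 reached an FPKM of 100 in 4 of 13 Late Immature and 15 of 25 Mature Neuron cells.

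Among the genes compared, more were lower than higher in Mature Neuron cells. The comparison took the 3835 genes found in 50% or more of the cells of 1 stage or the other. Of these 4.54% were higher and 32.7% (1253 genes) were lower by at least 1 log2 unit in mean log2(FPKM + 1). The median of the 3835 differences, Mature minus Late Immature, was -0.58, so most genes named below as lower share a general shift of the genes compared. Scaling each column to one sum moved this median to -1.31 and the split to 37 higher and 2395 lower. Those sums were dominated by very short entries, such as the 69 bp mitochondrial transfer RNA gene mt-Ts1 with a median of 30.2% of the sum in Late Immature and 41.9% in Mature Neuron cells. Scaling to the sum of protein-coding genes gave a median of -0.75, with 106 higher and 1506 lower. Centring on the median gene gave 562 higher and 572 lower. Many more genes passed the filter in Late Immature Neuron cells alone than in Mature Neuron cells alone. Part of the split and of the general shift was thus set by the filter. A filter on an average detected share of 50%, chosen after seeing the data, gave 4.3% higher and 28.6% lower, with a median of -0.49.

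Few of these differences were seen in both ranges of cell numbers. Higher by at least 1 log2 unit pooled and within both ranges were 57 genes (1.49%), and lower were 325 (8.47%). Within D213 to D274 alone 602 genes were higher, within D316 to D434 698 were, and 138 were higher in both, which is 22.9% of the former and 19.8% of the latter. Lower genes numbered 1201 and 1153, with 372 in both (31.0% and 32.3%). Of the genes higher in D213 to D274 29.6% were lower in D316 to D434, and of those lower in D213 to D274 17.9% were higher in D316 to D434. The sign was the same in both ranges for 2011 of 3835 genes (52.4%), and across genes the differences of the 2 ranges had a Pearson correlation of 0.026 and a Spearman correlation of 0.027, given as a description because genes are not replicates.

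**Figure D1:**
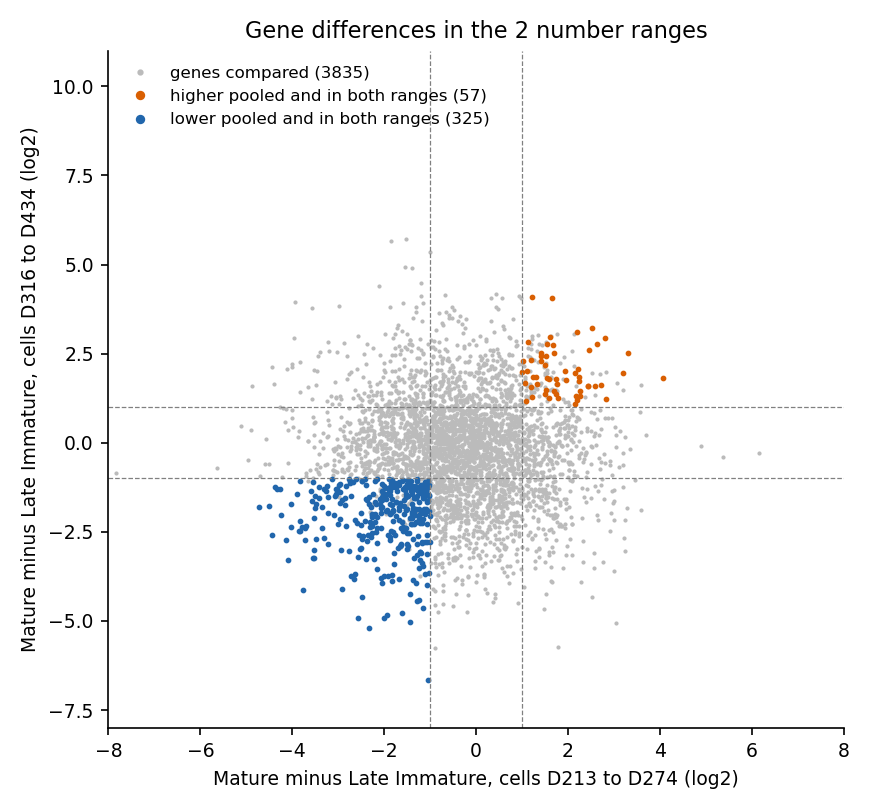
Each point is 1 of 3835 genes, with its Mature minus Late Immature difference of mean log2(FPKM + 1) among cells D213 to D274 on the x axis and among cells D316 to D434 on the y axis, and dashed lines at 1 and -1. The cloud shows no slope (Pearson 0.026), and 57 genes lie beyond 1 and 325 below -1 in both ranges and in all cells.

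The 3 mature neuron markers were already present in Late Immature Neuron cells, and Omp was at high levels. Omp and Adcy3 were detected in 13 of 13 of these cells and Pde4a in 12 of 13. Omp, a cytoplasmic protein of mature olfactory neurons (mm10, chr7:98143360-98145502, minus strand), ranged from 2724 to 11529 FPKM in Late Immature Neuron cells (median 4584) and from 1090 to 35132 in Mature Neuron cells (median 6257). The stages overlapped: the 5 Mature Neuron cells D29 to D97, at 19922 to 35132, and the cells D245 and D265 exceeded every Late Immature Neuron cell, and D259 lay below every one. On the log2 scale the means were 12.37 ± 0.67 (SD, n = 13 cells) and 12.86 ± 1.17 (n = 25 cells), a difference of 0.49. Within D213 to D274 it was -0.09 and within D316 to D434 -0.08, and with columns scaled to one sum it turned to -0.43. In Early Immature Neuron cells, the stage before, the mean Omp level was 5.94.

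Adcy3, the adenylyl cyclase of olfactory cilia (chr12:4133104-4213525, plus strand), ranged from 19.01 to 354 FPKM (median 60.6) in Late Immature and from 5.15 to 430 (median 89.9) in Mature Neuron cells. Its log2 difference was 0.33, with 0.44 within D213 to D274 and -1.32 within D316 to D434, where the cells D329 at 14.2 and D433 at 11.4 FPKM were the lowest. Pde4a, a cyclic AMP phosphodiesterase (chr9:21165714-21213248, plus strand), ranged from 0.908 to 488 FPKM (median 102) in Late Immature and from 5.16 to 2307 (median 238) in Mature Neuron cells. Its log2 difference was 1.36, past 1 log2 unit, but 0.26 and -0.97 within the 2 ranges. Single cells carried these: without the Mature Neuron cell D329 the difference within D316 to D434 was -0.01, and without the Late Immature Neuron cell D233 that within D213 to D274 was -1.08. Without D205, the Late Immature Neuron cell with the lowest Pde4a, the difference over all cells was 0.93, under 1 log2 unit. With columns scaled to one sum the differences were -0.58 for Adcy3 and 0.51 for Pde4a. For all 3 markers the pooled difference was thus larger than the difference within D316 to D434, and the 5 Mature Neuron cells D29 to D97 were among the highest, at 207 to 430 FPKM for Adcy3 and 468 to 2307 for Pde4a.

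**Figure D2:**
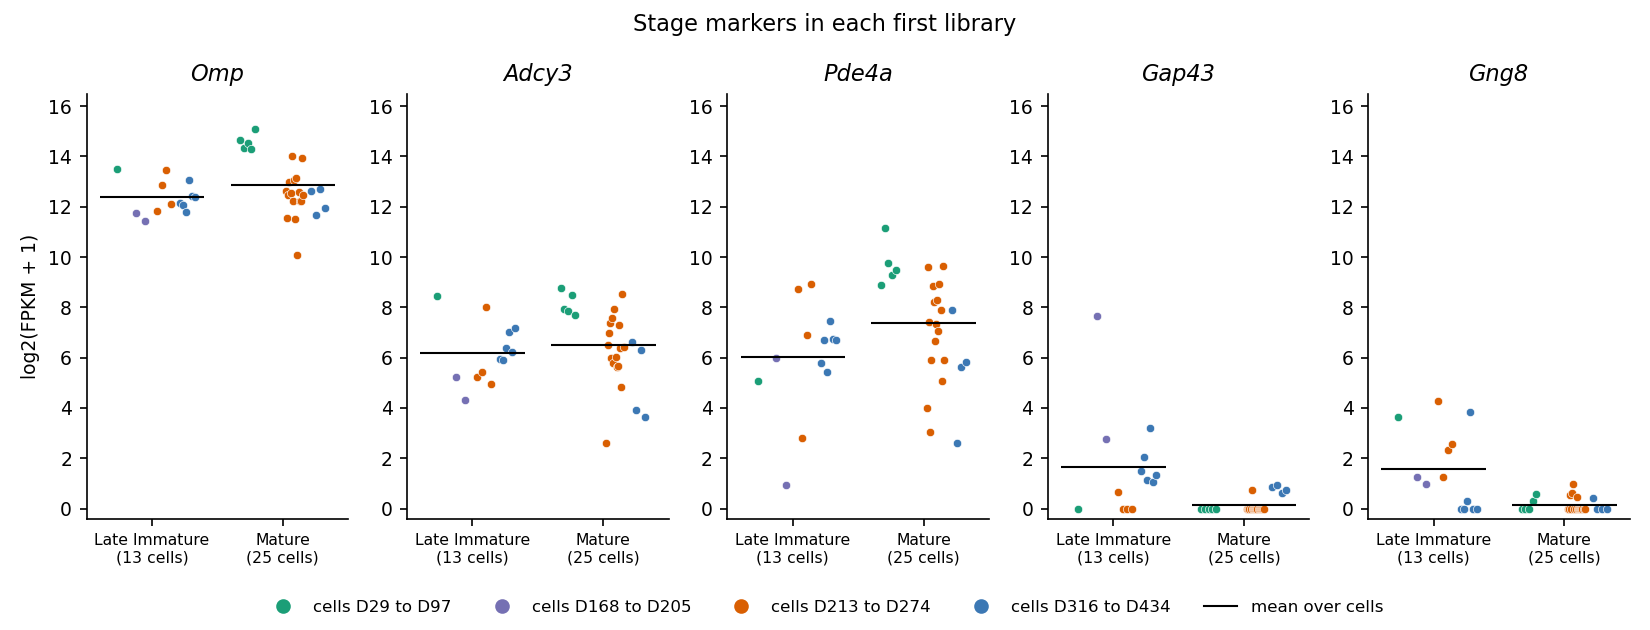
Levels of Omp, Adcy3, Pde4a, Gap43 and Gng8 as log2(FPKM + 1) on the y axis in the first library of each of 13 Late Immature and 25 Mature Neuron cells, 1 point per cell, coloured by range of cell numbers, with a line at the mean over cells. Omp, Adcy3 and Pde4a overlap between the stages. Gap43 and Gng8 lie at or near 0 in every Mature Neuron cell, and each also lies at 0 in some Late Immature Neuron cells.

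The immature neuron genes Gap43 and Gng8 followed the stage labels in the first libraries, but as a pair and neither alone. Gap43 (chr16:42248442-42340651, minus strand) ranged from 0 to 198.8 FPKM in Late Immature Neuron cells (median 1.19) and from 0 to 0.893 in Mature Neuron cells (median 0). Gng8, a G protein gamma subunit (chr7:16891786-16895435, plus strand), ranged from 0 to 18.3 FPKM (median 1.38) and from 0 to 0.969 (median 0). The log2 differences were -1.49 and -1.42, and that of Gap43 was -0.99 without the Late Immature Neuron cell D199 at 198.8 FPKM. Within D213 to D274 and D316 to D434 they were -0.11 and -0.93 for Gap43, and -2.45 and -0.59 for Gng8. Gap43 within D213 to D274 turned to 0.046 without D230, and Gng8 within D316 to D434 to 0.038 without D406. Without the cells with Cbr2 or Cyp2g1 at 100 the pooled differences were -0.87 and -0.88. On the same scale the mean log2 levels of Gap43 and Gng8 were 7.54 and 4.54 in Early Immature, 1.64 and 1.58 in Late Immature and 0.16 and 0.15 in Mature Neuron cells. At least 1 of these genes had an FPKM of at least 1 in 13 of 13 Late Immature Neuron cells and in 0 of 25 Mature Neuron cells. This threshold was noticed after the values were seen. How the stages were assigned, and whether these genes entered into it, is not given in the sources used here, so the coincidence is a description and not a result about maturation.

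In the first libraries the 2 ranges differed in which of the pair was above the threshold. Gap43 reached an FPKM of 1 in 8 and Gng8 in 7 of the 13 Late Immature Neuron cells. In D316 to D434 all 6 Late Immature Neuron cells had Gap43 at 1.08 to 8.24, and the 4 Mature Neuron cells had it just under the threshold, at 0.557 to 0.893. In D213 to D274 the 4 Late Immature Neuron cells had Gap43 at 0 to 0.561 and Gng8 at 1.40 to 18.3. Most of these values rest on few fragments. D412 at a Gap43 FPKM of 1.08 held about 8 fragments and the Mature Neuron cell D342 at 0.557 about 5. The Late Immature Neuron cell D233 at a Gng8 FPKM of 1.40 held about 2 fragments, and the Mature Neuron cell D245 at 0.969 about 1.

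Technical repeats of 5 of these cells did not keep to that threshold. In the Mature Neuron cell D243 Gap43 was 0.671 in the first and 199.3 FPKM in the repeat library. In the Mature Neuron cell D251 Gng8 was 0 and 53.7, and Gap43 was 0 and 2.34. Both Mature Neuron repeats were therefore above an FPKM of 1 in at least 1 of the pair. Among Late Immature Neuron cells, Gap43 was 0 and 269 in D250, 0.561 and 11.1 in D230, and 0 and 4.35 in D233. Omp kept within a smaller span: it was 5981 and 5246 FPKM in D243, 4739 and 6594 in D251, 4368 and 2614 in D250, 7529 and 9459 in D233, and 3681 and 12284 in D230. Pde4a was 58.5 and 1.93 in D243 and 6.07 and 104 in D233.

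**Figure D3:**
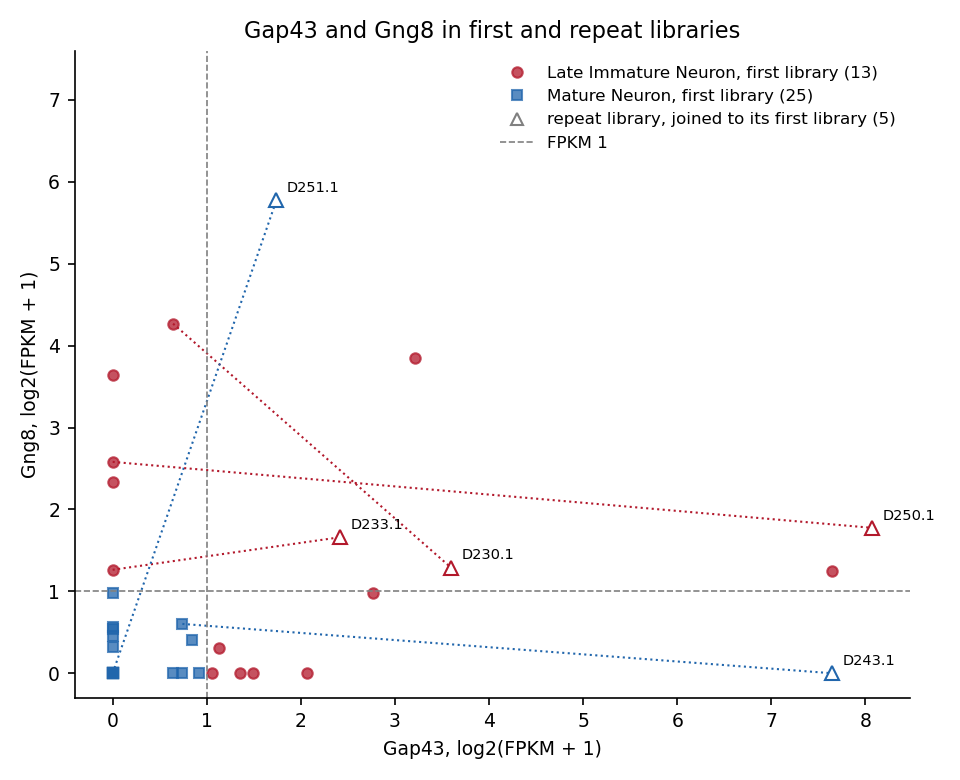
Gap43 on the x axis and Gng8 on the y axis, both as log2(FPKM + 1), in the first libraries of 13 Late Immature (circles) and 25 Mature Neuron cells (squares) and in 5 repeat libraries (triangles, joined to the first library of the same cell), with dashed lines at an FPKM of 1. No Mature Neuron first library lies past either line, and both Mature Neuron repeats do.

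The top odorant receptor was the same in the first and the repeat library of 4 of these 5 cells, for example Olfr728 at 8831 and 2111 FPKM in D243 and Olfr1281 at 1355 and 995 in D251. The exception was D230, with Olfr60 at 2152 FPKM in the first library and Olfr810, its second receptor, at 1440 in the repeat. Levels of other genes differed widely between the libraries of 1 cell. The compared genes at 10 FPKM or more in either library were taken. Their median absolute difference between first and repeat library was 2.71 (D251) to 3.72 (D250) log2 units. This is above the 1 log2 unit used here for a difference between stages. The Pearson correlation of levels across these genes was 0.017 to 0.14. Genes low in both libraries were left out and genes high in 1 alone were kept. That choice lowers the correlation and raises the difference, so neither value stands for all genes. Of the compared genes with 10 FPKM or more in the first library, the repeat detected 74.3% in D243, against a median of 75.2% in the first libraries of the 37 other cells. For D251 the values were 73.1% and 74.8%, for D250 70.7% and 75.5%, for D233 76.0% and 72.5%, and for D230 82.2% and 73.0%. By this measure the repeat of a cell stood above 10 (D250) to 33 (D230) of the 37 other cells.

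Promoter windows of the marker genes were taken from RefSeq (GRCm38.p6), whose table gave windows for Adcy3, Pde4a and Gng8. They are shown because these marker genes are the ones described above, and were searched for CCCNNGGG, the core of the motif of Ebf (Olf-1) factors, and for the homeodomain core TAATTA. Both motifs read the same on both strands and never overlap each other. The 250 bases before the start are printed 5′ to 3′, with CCCNNGGG in capitals, for 1 window of Adcy3 at chr12:4133147-4133396, 1 of Pde4a at chr9:21183851-21184100 and the window of Gng8 at chr7:16891536-16891785, all on the plus strand.
Adcy3: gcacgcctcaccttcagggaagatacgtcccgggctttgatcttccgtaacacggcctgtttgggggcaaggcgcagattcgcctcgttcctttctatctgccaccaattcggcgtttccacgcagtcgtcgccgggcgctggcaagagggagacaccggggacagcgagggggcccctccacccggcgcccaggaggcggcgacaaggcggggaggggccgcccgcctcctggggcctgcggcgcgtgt
Pde4a: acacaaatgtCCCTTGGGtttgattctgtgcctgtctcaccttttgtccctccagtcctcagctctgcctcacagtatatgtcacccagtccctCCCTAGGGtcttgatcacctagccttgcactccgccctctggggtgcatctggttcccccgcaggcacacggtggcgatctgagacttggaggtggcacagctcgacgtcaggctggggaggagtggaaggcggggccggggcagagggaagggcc
Gng8: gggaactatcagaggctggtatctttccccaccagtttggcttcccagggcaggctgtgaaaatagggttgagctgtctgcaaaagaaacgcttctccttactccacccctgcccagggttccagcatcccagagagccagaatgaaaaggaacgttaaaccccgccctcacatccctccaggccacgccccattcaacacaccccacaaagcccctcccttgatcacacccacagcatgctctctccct

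The printed Pde4a window, 1 of 3 in the table, held CCCNNGGG at 2 places, and the other two, one of them just before the start of the gene given above, held neither motif. Neither motif was in the 2 windows of Adcy3 or the window of Gng8. Among all 32851 windows of 250 bases before to 50 after a start, 13.7% held CCCNNGGG and 5.29% TAATTA. CCCNNGGG was in 7 of 24 windows (29.2%) of odorant transduction genes and in 4 of 17 (23.5%) of immature neuron genes. It was in 17.7% of the windows of all genes compared. The 7 windows of transduction genes belonged to Gng13, Cnga2, Cnga4, Cngb1, Ano2, Slc24a4 and Pde4a. All 3 subunits of the cyclic nucleotide gated channel were thus among them. Of genes lower in both ranges 45 of 256 with a window (17.6%) and of genes higher in both 6 of 43 (13.95%) held it in any window, against 21.1% of all genes compared. A match is a sequence match only.

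Most other odorant transduction genes differed by less than 1 log2 unit between the stages. Of 17 listed genes 14 were compared, and 1 (Pde4a) was higher and 0 were lower by at least 1 log2 unit. Over all genes compared 4.54% were higher and 32.7% lower. The list median was 0.47, against -0.58 for all genes. Within the 2 ranges the list median was -0.01 and -0.07, and with columns scaled to one sum it was -0.44, against -1.31 for all genes. Without the cells with Cbr2 or Cyp2g1 at 100 it was -0.16, against -0.59, and Adcy3 turned to -0.29. The G protein alpha subunit Gnal, which forms Golf, had 172.3 to 1243 FPKM (median 389) in Late Immature and 204.6 to 3032 (median 604) in Mature Neuron cells. Its difference was 0.66, with 0.08 and 0.49 within the ranges. The gamma subunit Gng13 differed by 0.61 (0.92 and 0.46), and Ric8b, an exchange factor for Golf, by 0.62 (-0.83 and 0.94). Gng13 and Gnal were thus the transduction genes with a positive difference in both ranges, each under 1 log2 unit. Gnal within D213 to D274 turned to -0.12 without D250, and with columns scaled to one sum their pooled differences turned to -0.26 for Gnal and -0.31 for Gng13.

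The channel subunit Cnga2 had 57.2 to 1703 FPKM (median 483) in Late Immature and 0.828 to 2811 (median 665) in Mature Neuron cells, which overlapped throughout. Differences were 0.50 for Cnga2, 0.35 for Cnga4 and 0.45 for Cngb1. Cnga4 and Cngb1 were below 0 within both ranges, at -0.52 and -0.60 and at -0.71 and -0.86. The chloride channel Ano2 differed by -0.75, with -2.36 and -0.01 within the ranges, and the sodium, calcium and potassium exchanger Slc24a4 by -0.96 (-1.34 and 0.23). Slc12a2, the transporter that loads chloride into the neuron, differed by 0.80 (2.01 and -0.59). Pde1c, the other phosphodiesterase compared, differed by 0.13. Every compared transduction gene other than Slc24a4 was detected in at least 12 of 13 Late Immature and 23 of 25 Mature Neuron cells.

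Other mature neuron genes did not move together either. Of 15 listed, 13 were compared, 1 was higher and 2 were lower, against 4.54% and 32.7% of all genes. Their median was -0.04 (-0.73 and -0.37 within the ranges). The calcium-binding protein S100a5 was the one higher, from 31.0 to 22384 FPKM (median 3165) in Late Immature and from 46.0 to 30188 (median 5845) in Mature Neuron cells. Its difference was 1.16, but it was -1.14 within D213 to D274 and 2.51 within D316 to D434, where D412 at 37.9 and D432 at 31.0 were the lowest Late Immature Neuron cells. Stoml3, a stomatin-like protein of cilia, differed by 0.32, and the receptor transporters Rtp1 and Rtp2 by -0.04 and 0.05. The adhesion molecule Ncam2 was lower by 1.82 log2 units, and by 1.21 and 3.06 within the ranges. Reep1 was lower pooled (-1.35) and -0.85 and 2.25 within the ranges.

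Many immature neuron genes were lower over all cells, by less within the ranges. Of 24 listed, 19 were compared, 11 were lower and 1 was higher, against 32.7% and 4.54% of all genes. Their median was -1.28, against -0.58 for all genes. Within the ranges the median was -0.74 and -0.62, against -0.37 and -0.20 for all genes, and without the cells with Cbr2 or Cyp2g1 at 100 it was -0.15, above the -0.59 of all genes. No member was lower by 1 log2 unit in both ranges. The neuronal beta tubulin Tubb3 had 88.2 to 1087 FPKM (median 321) in Late Immature and 0 to 761 (median 113) in Mature Neuron cells. The Mature Neuron cells D223, D213, D29, D254, D55, D95 and D81 were the lowest, at 0 to 4.58, and the difference of -2.40 was -1.59 in D213 to D274 and 0.08 in D316 to D434. The other beta tubulin of young neurons, Tubb2b, was detected in 9 of 13 and 3 of 25 cells, with a difference of -2.09 (-2.23 and -0.53). Tubb2b passed the filter in Late Immature Neuron cells alone, so its lower detection in Mature Neuron cells was set by the filter.

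Dpysl3, a collapsin response mediator, was detected in 7 of 13 Late Immature and 3 of 25 Mature Neuron cells and differed by -1.68, with -0.80 and -2.46 within the ranges. Marcksl1, a membrane-bound actin regulator, was detected in 8 of 13 and 7 of 25 cells and differed by -1.55 (-0.74 and -1.12). Dpysl3 and Marcksl1 passed the filter in Late Immature Neuron cells alone, so their lower detection in Mature Neuron cells was set by the filter. The stathmins, which destabilise microtubules, split. Stmn3 differed by -1.51 (-0.74 and -1.56) and Stmn1 by -1.28 (-0.40 and -2.005). Stmn2 was higher, by 1.497, with 1.05 and 0.95 within the ranges, and Stmn4 differed by 0.99 (0.66 and 1.32). Stmn2 had 0.629 to 264.7 FPKM (median 51.6) in Late Immature and 0.967 to 787 (median 133) in Mature Neuron cells, both below the median of 848 in Early Immature Neuron cells. Of genes of earlier stages, Hes6 alone of 17 progenitor and precursor genes was compared, and it was lower (-1.55, with -1.50 and -2.53). Hes6 too passed the filter in Late Immature Neuron cells alone.

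**Figure D4:**
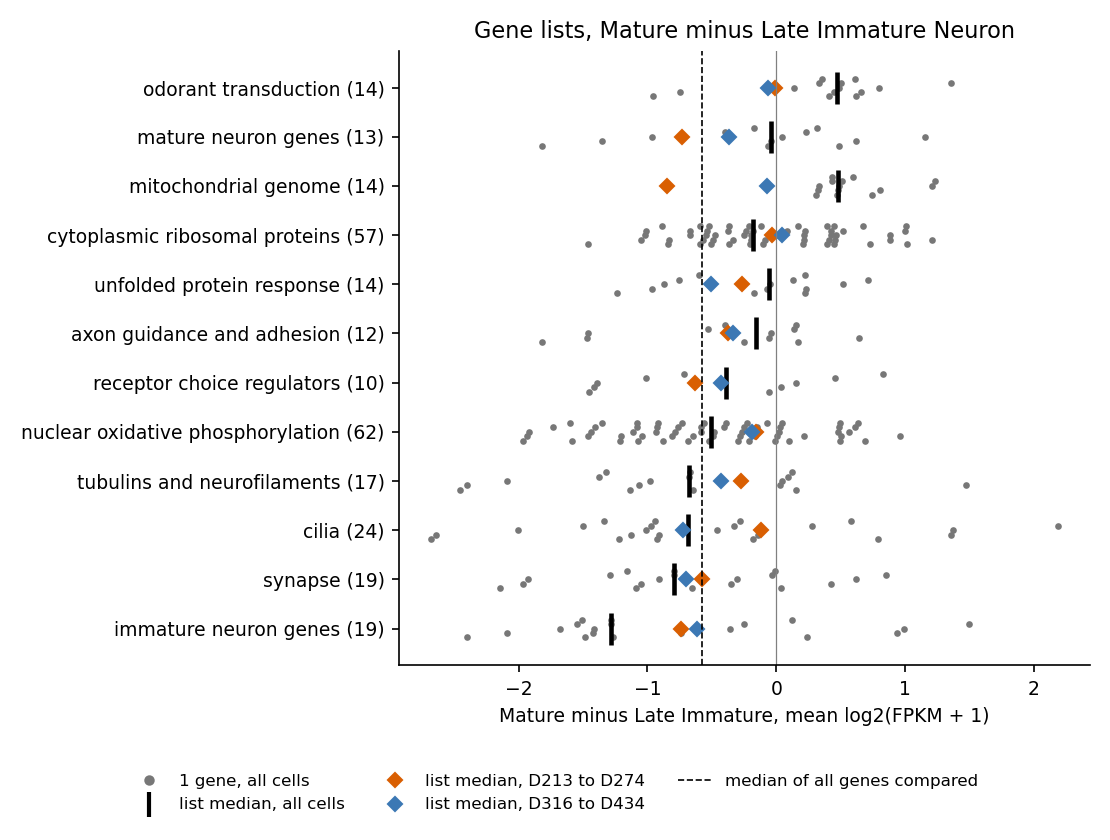
Mature minus Late Immature differences of mean log2(FPKM + 1) on the x axis for the compared genes of 12 gene lists, with the number compared in brackets, the list median over all cells (black bar) and within the 2 ranges (diamonds), and the median of all genes (-0.58, dashed). Of these 12 lists, odorant transduction and mitochondrial genome genes have the highest medians (0.47 and 0.48), and immature neuron genes the lowest (-1.28). Lists not drawn went further, such as sustentacular cell genes (0.97) and cell cycle genes (-1.74).

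Among the 15 highest differences seen in both ranges, the genes were spread over many functions. Nsmce1, a subunit of the SMC5/6 DNA repair complex, had 0.114 to 21.9 FPKM (median 1.54) in Late Immature and 0 to 1221 (median 2.12) in Mature Neuron cells, and differed by 2.27 (1.67 and 2.73). The medians were close, and 10 of 25 Mature Neuron cells exceeded every Late Immature Neuron cell. The RNA-binding protein gene Rbm6 was detected in 5 of 13 and 16 of 25 cells and differed by 2.24. Ift74 and Ttc30b, both of the intraflagellar transport complex that carries cargo along cilia, differed by 2.19 (1.49 and 2.17) and 2.11 (2.27 and 1.46). Ift74 had 0.151 to 292 FPKM (median 46.3) and 0.687 to 2939 (median 80.3), and 6 Mature Neuron cells (D97, D254, D95, D29, D223 and D253) exceeded every Late Immature Neuron cell. The histone gene Hist1h2bc, whose reads can be hard to tell from those of its close copies, had 0 to 244.6 FPKM (median 3.95) and 0 to 442 (median 109) and differed by 2.14 (1.65 and 4.05).

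The other genes of this group were the RNA processing gene Lsm4 (1.95), the Arf regulator Smap1 (1.95), the mitochondrial fusion gene Opa1 (1.92), Tdrkh (1.90), the vesicle fusion gene Vps45 (1.86), Aktip (1.85), Dbndd2 (1.78), Dalrd3 (1.71), Abhd11 (1.70) and the Polycomb gene Phc2 (1.69). They were detected in 3 (Abhd11) to 10 (Dbndd2) of 13 Late Immature and in 14 to 22 of 25 Mature Neuron cells. Rbm6, Opa1, Tdrkh, Vps45, Abhd11 and Phc2 passed the filter in Mature Neuron cells alone. Their low detection in Late Immature Neuron cells was thus set by the filter. With columns scaled to one sum the 15 differences stayed above 0, from 0.91 (Dbndd2) to 1.96 (Rbm6). Without the cells with Cbr2 or Cyp2g1 at 100, Vps45 was at -0.07, Phc2 at 0.15 and Dalrd3 at 0.44, and the other 12 at 1.201 (Smap1) or more. In every one of these 15 genes the values of the 2 stages overlapped. Late Immature Neuron cells above the Mature Neuron median occurred for each of them except Ttc30b, which had 0.0588 to 56.9 FPKM (median 7.07) in Late Immature and 0 to 542 (median 63.1) in Mature Neuron cells.

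The lowest differences seen in both ranges were larger, and most of these 15 genes were undetected in the majority of Mature Neuron cells. Rabl2, a small GTPase known from ciliary transport, had 63.2 to 662 FPKM (median 330) in Late Immature and 0 to 1043 (median 10.7) in Mature Neuron cells. It was detected in 13 of 13 and 21 of 25 cells and differed by -3.94, with -4.50 and -1.77 within the ranges. Of the Mature Neuron cells 16 of 25 lay below the lowest Late Immature Neuron cell, but the highest level of all was in the Mature Neuron cell D95. Mtch2, a protein of the mitochondrial outer membrane, had 0 to 291 FPKM (median 66.5) and 0 to 87.6 (median 0). It was detected in 11 of 13 and 7 of 25 cells and differed by -4.09 (-4.44 and -2.58). Mtch2 passed the filter in Late Immature Neuron cells alone, so its lower detection in Mature Neuron cells was set by the filter. The RNA polymerase II subunit gene Polr2c was detected in 13 of 13 and 16 of 25 cells and differed by -3.30 (-1.94 and -4.82).

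Also among the 15 lowest were Ergic3 (-3.71), the palmitoyltransferases Zdhhc12 (-3.68) and Zdhhc13 (-3.41), Wrb of tail-anchored protein insertion (-3.25), the coatomer gene Copb2 (-3.19) and the transporter gene Slc35b1 (-3.12). The others were Isca2 (-3.45) and Mrpl40 (-3.13), Nap1l5 (-3.64), Kansl2 (-3.38), Cnn3 (-3.37) and the proteasome activator Psme1 (-3.24). Each of these 12 genes was detected in 9 to 12 of 13 Late Immature and in 4 to 12 of 25 Mature Neuron cells. They thus passed the filter in Late Immature Neuron cells alone, so their lower detection in Mature Neuron cells was set by the filter. More genes were detected in Late Immature Neuron cells in general: the median was 4415 against 3403 per cell in D213 to D274 and 4462 against 4236 in D316 to D434. The part of this in the lower levels was not tested. Without the 19 cells with Cbr2 or Cyp2g1 at 100, the genes seen in both ranges numbered 170 higher and 514 lower.

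Cilia genes went in both directions. Of 32 listed, 24 were compared, 3 were higher and 8 lower, against 4.54% and 32.7% of all genes. Their median was -0.69 (-0.11 and -0.72 within the ranges), close to that of all genes pooled. Higher were Ift74, the BBSome subunit Bbs7 (1.37, with 0.87 and 2.86) and Ift43 (1.36, with 1.87 and -0.09). Lower in both ranges were Bbs5, another BBSome subunit, at -2.68 (-2.49 and -4.34), and Ift57 at -2.01 (-1.16 and -1.93). Bbs5 had 0 to 545 FPKM (median 69.8) in Late Immature and 0 to 338 (median 1.06) in Mature Neuron cells. Ift20 was lower by 2.64 log2 units pooled, and its difference was -2.70 and 0.01 within the ranges. The BBSome subunits Bbs5 and Bbs7 thus lay on opposite sides of 0, pooled and within each range.

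Synapse genes were called about as often as all genes. Of 28 listed, 19 were compared, 0 were higher and 7 lower, against 4.54% and 32.7% of all genes, with a median of -0.79 (-0.57 and -0.70). The vesicle fusion gene Napb (-2.15, with -4.03 and -2.37) and the synapsins Syn1 (-1.29, with -1.84 and -1.57) and Syn2 (-1.09, with -1.04 and -1.24) were lower in both ranges. Napb was detected in 7 of 13 and 3 of 25 cells. Napb and Syn1 passed the filter in Late Immature Neuron cells alone, so their lower detection in Mature Neuron cells was set by the filter. The vesicle protein Syp differed by 0.85 and Snap25, a core of the release machinery, by -0.03.

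Axon guidance and adhesion genes numbered 31, of which 12 were compared, 0 were higher and 3 lower (median -0.15). The share over all genes was 4.54% higher and 32.7% lower. Ncam2 and the ephrin Efna5 (-1.46, with -1.63 and -2.83) were lower in both ranges, and the guidance receptor Robo2 (-1.47) turned from 2.52 in D213 to D274 to -4.33 in D316 to D434. Of 26 cytoskeleton genes 17 were compared, 1 was higher and 7 lower (median -0.67). Tuba4a was higher by 1.48, and the actin regulator Pfn1 was lower by 2.45 (-0.30 and -3.86 within the ranges). Gnao1, the Go alpha subunit, which is known from vomeronasal and immature olfactory neurons, had 23.2 to 221 FPKM (median 92.7) in Late Immature and 0.0540 to 345.4 (median 23.5) in Mature Neuron cells. It was lower by 2.10 log2 units, and by 1.56 and 1.31 within the ranges.

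Of 25 regulators of receptor choice 10 were compared, 0 were higher and 4 lower by 1 log2 unit (median -0.39, with -0.63 and -0.43 within the ranges). Of all genes compared 4.54% were higher and 32.7% lower, with a median of -0.58. Lower were Ebf4 (-1.46, with -2.41 and -0.93), Emx2 (-1.41, with -0.80 and -1.28), Rcor1 (-1.39, with 0.53 and -3.16) and the chromatin remodeller Bptf (-1.01, with -1.85 and -1.12). Lhx2, the homeodomain factor of receptor enhancers, had 23.9 to 260.8 FPKM (median 128) and 3.31 to 746 (median 79.5) and differed by -0.72. Ebf2 differed by 0.83 and Ebf3 by 0.46. Of unfolded protein response genes, which take part in the feedback that stabilises receptor choice, 14 of 24 were compared, 0 were higher and 1 lower (median -0.06, and -1.05 without the cells with Cbr2 or Cyp2g1 at 100). Atf5, the transcription factor of that feedback, had 153 to 1160 FPKM (median 395) and 28.6 to 1399 (median 502) and differed by -0.07. Ddit3 was the one lower, by 1.24 log2 units, with -2.21 and -0.85 within the ranges.

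The nuclear genes of oxidative phosphorylation were all compared (62 of 62), 0 were higher and 17 lower, with a median of -0.50 (-0.16 and -0.19), near the 32.7% lower and the median of -0.58 of all genes. For this and the other lists of this paragraph, the share of all genes that was higher was 4.54%. Cox5a, a subunit of cytochrome c oxidase, differed by -1.96 (-0.67 and -1.58), Cyc1 by -1.93 (-1.11 and -1.09) and Ndufb2 of complex I by -1.92 (-2.75 and -1.12). Transcripts of the mitochondrial genome were above 0 in the difference for 14 of 14 compared, with 2 higher by 1 log2 unit, mt-Atp8 (1.23) and mt-Rnr2 (1.21), and a median of 0.48. Within the ranges this median was -0.85 and -0.08, so the pooled direction was not seen in either, and with columns scaled to one sum the pooled median was -0.43. Of 57 ribosomal protein genes 4 were higher and 4 lower (median -0.18). Rpl30 (1.10 and 2.02 within the ranges) and Rpl22 (1.31 and 1.85) were higher in both. Housekeeping genes had a median of -0.01 over 11 compared, with 0 higher and 1 lower.

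The remaining lists held few genes past 1 log2 unit, while 4.54% of all genes were higher and 32.7% lower. Of 9 ion channel and pump genes compared 0 were higher and 0 lower, with a median of 0.31 (0.33 and -0.18 within the ranges, -0.60 with columns scaled to one sum). Atp1b1, a beta subunit of the sodium pump, differed by 0.31. Among 9 calcium-binding genes, with a median of 0.27 (-0.65 with columns scaled to one sum), S100a5 was the one higher and Hpcal1 the one lower (-1.04), and the calmodulin genes Calm2 and Calm3 differed by 0.30 and 0.27. Of 12 glycolysis and creatine kinase genes 0 were higher and 2 lower, Aldoa (-1.21) and Pfkp (-1.13), with a median of -0.46. Of 4 genes of fatty acid and steroid handling 1 was lower, Sqle (-1.26), with a median of -0.58.

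Among 18 chromatin regulators compared, with a median of -0.29, Suz12 of Polycomb complex PRC2 was higher (1.28, with 0.59 and 2.26 within the ranges) and Dnmt3a (-1.60), Mbd3 (-1.43) and Smarca4 (-1.22) were lower. The DNA methyltransferase Dnmt3a differed by -0.53 and -1.18 within the ranges. Beside the lists of this paragraph, 4.54% of all genes were higher and 32.7% lower. Cell cycle genes were seldom detected: 4 of 30 were compared and 3 were lower, Cks2 (-2.37), the replication clamp Pcna (-2.34) and Cdk4 (-1.14), with a list median of -1.74. The median was -0.12 and -0.53 within the ranges and -0.15 without the cells with Cbr2 or Cyp2g1 at 100. Pcna was lower in both ranges (-1.37 and -2.71), while Cdk4 was 2.88 in D316 to D434. Of immediate early genes 5 of 21 were compared, with 0 higher, 0 lower and a median of -0.36, and of dissociation stress genes 5 of 14, with 0 higher, 0 lower and a median of 0.01. Of 16 genes of other chemosensory cells 3 were compared and 2 were lower, Gnao1 and Car2 (-1.46, with -2.77 and 0.97), with a median of -1.46.

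Sustentacular cell genes were found in many cells of both stages, and genes of other cell types of the tissue in fewer. The summed FPKM of 14 sustentacular cell genes ranged from 0.458 to 5601 (median 22.3) in Late Immature and from 0.976 to 2892 (median 629) in Mature Neuron cells, and it reached 100 in 5 of 13 and 18 of 25 cells. Of these genes 4 were compared, and 2 were higher and 0 lower, against 4.54% and 32.7% of all genes. Cbr2 differed by 1.85 (-1.10 and -0.01 within the ranges) and Cyp2g1 by 1.199 (-0.20 and 1.19). The highest Cbr2, 3764 FPKM, was in the Late Immature Neuron cell D230. No gene of the lists for horizontal basal, gland and microvillous, glial, immune and stromal cells was detected widely enough to be compared. Krt5, Krt14 and Trp63 of horizontal basal cells and Sox10 of glia were at 0 in all 38 cells. The gland and microvillous list summed to 100 FPKM or more in 3 of 13 Late Immature and 6 of 25 Mature Neuron cells, with at most 1910 in the Mature Neuron cell D55. The glial list did so in 0 and 5 cells (at most 325, in D342), the immune list in 3 and 2 (at most 1159, in D250) and the stromal list in 1 and 1 (at most 464, in D213). The part of such RNA in the differences between the stages was not tested.

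Odorant receptor RNA was dominated by 1 gene in most cells of both stages. The 38 cells had 38 different top receptors, but those of D205 and D329 were at 9.03 and 7.84 FPKM. The highest of each stage were Olfr222 (chr11:59570699-59571813, minus strand) at 27555 FPKM in the Mature Neuron cell D95 and Olfr325 (chr11:58580832-58583852, plus strand) at 10652 FPKM in the Late Immature Neuron cell D233. The top receptor held 42.2 to 99.8% of the summed receptor FPKM in Late Immature and 24.9 to 99.7% in Mature Neuron cells. The lowest share of each stage was that of D205 and of D329. Next were the Late Immature Neuron cell D230 at 42.8% and the Mature Neuron cell D232 at 41.4%. Their top receptors were Olfr60 at 2152 FPKM and Olfr398 at 273 FPKM. The second receptor had 2.85 to 782 FPKM (median 24.2) and 3.84 to 877 (median 44.9).

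Summed receptor FPKM ranged from 21.4 to 11296 in Late Immature and from 31.5 to 27692 in Mature Neuron cells, and the stages overlapped. The difference of mean log2(sum + 1) was 1.197, but -0.54 within D213 to D274 and -0.73 within D316 to D434. The latter rested on the Mature Neuron cell D329, and without it the difference within D316 to D434 was 0.95. The 5 Mature Neuron cells D29 to D97 were high, at 6938 to 27692. As a share of the FPKM sum of protein-coding genes, receptors held 0.00624 to 2.69% (median 0.565%) and 0.00847 to 3.89% (median 0.934%), and the difference on the log2 scale was 0.91. As a share of the whole column it was 0.28. Without D205 the difference in level was 0.65 and without D329 it was 1.495, the extremes over the 38 cells left out in turn, and without both it was 0.95.

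**Figure D5:**
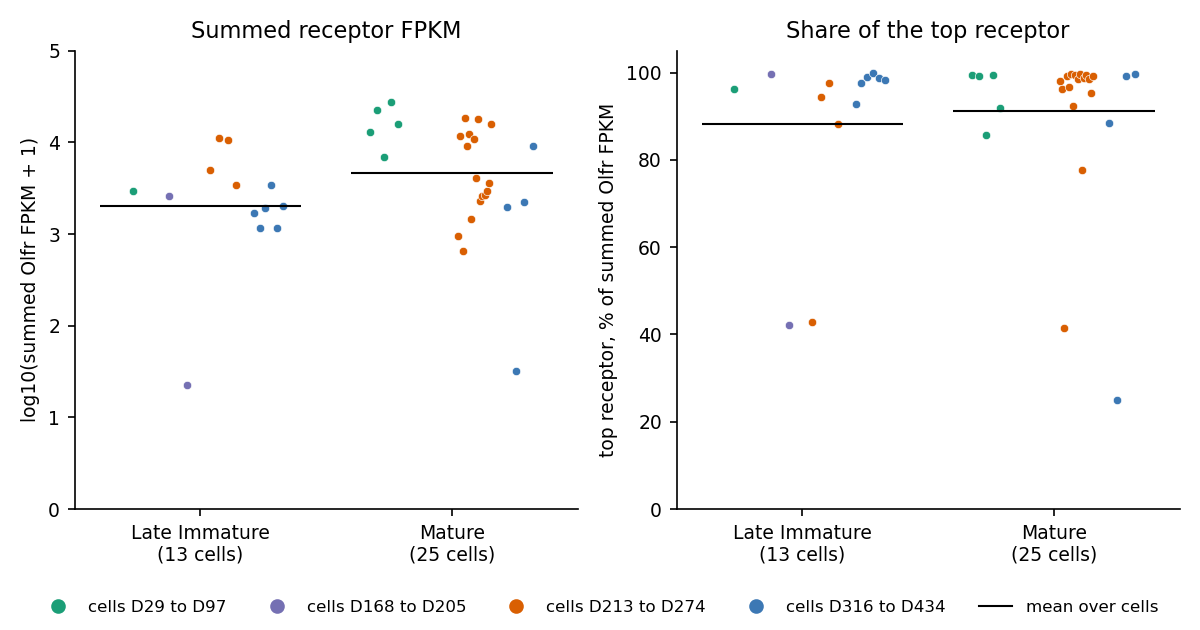
Left, summed odorant receptor FPKM per cell as log10(sum + 1); right, the share of that sum held by the top receptor in percent; both for 13 Late Immature and 25 Mature Neuron cells, 1 point per cell coloured by range of cell numbers, with a line at the mean. The stages overlap in both, and D205 and D329 lie lowest on the left, at 21.4 and 31.5 FPKM.

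The authors' deposited table gives each of these cells a pseudotime, a score of their own without unit. In the authors' deposited table it ran from 33.6 (D205) to 48.6 (D250) in Late Immature Neuron cells, with a median of 37.2, and from 36.3 (D329) to 51.4 (D29) in Mature Neuron cells, with a median of 45.2. In the authors' deposited table the scores overlapped, and 18 of 25 Mature Neuron cells scored below the highest Late Immature Neuron cell. The order of single cells along this score and the stage labels thus overlapped, as did the levels of Omp, Adcy3 and Pde4a.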

How the data were processed

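The deposited gene table gives FPKM made by the authors for 32975 entries. The submitters' processing notes name, with no settings, TopHat2 2.0.14, Cufflinks 2.2.1, cutadapt 1.2.1, CASAVA 1.8.2 and Trim Galore, and the build mm10. Gene positions (start and end of each entry, an other kind of value) are those of the authors' deposited annotation, and the pseudotime score is the authors' own, per the file headers.

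Entries were joined to 32640 symbols, with the highest value used for 172 symbols with several entries. Levels were compared as log2(FPKM + 1), pseudocount 1, among genes that reached an FPKM of 1 in 50% or more of the cells of 1 stage or the other. Of these 2299 passed in both stages, 1333 in Late Immature Neuron cells alone and 203 in Mature Neuron cells alone, so genes that passed in 1 stage had to differ. A gene was called higher or lower at a difference of means of at least 1 log2 unit. Fragments per FPKM were recovered from the steps between low values, using 2282 genes with 1 exon and a length of 800 to 4000 bp (tolerance 5%). Cells are not replicates of a stage, so no p-value was computed.

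The members and the 29 gene lists were chosen with earlier results of these data known. The text names the 3 markers, the 15 highest and 15 lowest differences seen in both ranges (without receptors, Gm, Rik, ribosomal, mitochondrial genome and unnamed genes), up to 5 members of each list by size of difference, Gap43, Gng8, Cnga2, Gnal, Ano2, Rtp1, S100a5 and Stoml3, and top receptors. Other list members named were chosen for their role after their values were seen. The script was tested on simulated data with 200 changed genes. Python 3.11.15, pandas 2.3.3, numpy 2.4.6, scipy 1.17.1 and matplotlib 3.10.9 were used.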

Additional observations from a re-analysis of the deposited data

Results flagged for a closer look

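Within a stage and range of 4 to 10 cells, a cell far from the others was looked for in 56 groups, and chance marks about 1 in 20 groups. Levels are log2(FPKM + 1). Adcy3 in the Late Immature Neuron cell D234 was 8.02, against 4.97 to 5.42 in the 3 other cells of D213 to D274. Gap43 in the Late Immature Neuron cell D230 was 0.64, and it was 0 in the others of that range. Gng8 in the Late Immature Neuron cell D406 was 3.85, against 0 to 0.31 in the 5 others of D316 to D434. Gng8 in the Mature Neuron cell D316 was 0.40, and it was 0 in the 3 others of its range. Cnga2 in the Late Immature Neuron cell D334 was 6.37, against 8.49 to 9.69 in the 5 others of D316 to D434.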

How the results depend on the processing

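Counts of called genes, as a share of the genes compared, depended on the scaling, the threshold and the cells. The 4.54% higher became 0.965% with columns scaled to one sum, 1.23% with sums without mitochondrial and receptor genes, 2.76% with protein-coding sums, 14.7% when centred on the median gene, 1.51% with a pseudocount of 10, 2.11% of all genes above 0, 3.97% with an FPKM minimum of 10, 9.50% without the cells with Cbr2 or Cyp2g1 at 100, 15.7% and 18.2% within D213 to D274 and D316 to D434, and 0.209% at 2 log2 units. The 32.7% lower became 62.5% and 51.6% with all columns scaled to sums with and without mitochondrial and receptor genes, 14.9% when centred, 8.45% with a pseudocount of 10, 37.4% with an FPKM minimum of 10, 50.9% with medians over cells and 7.09% at 2 log2 units. The 1.49% higher in both ranges became 0.548% and 0.574% under those sums, 3.91% when centred, 0.443% with a pseudocount of 10, 0.577% of all genes above 0, 1.39% with an FPKM minimum of 10, 4.11% without the Cbr2 or Cyp2g1 cells and 0.0261% at 2 log2 units. The 8.47% lower in both became 14.3% and 1.59% with pseudocounts of 0.1 and 10, 13.7% with medians, 12.4% without the Cbr2 or Cyp2g1 cells, 3.94% when centred and 1.25% at 2 log2 units. Leaving out each cell in turn gave 4.41 to 5.48% higher, 31.4 to 36.7% lower, 1.33 to 1.77% higher in both ranges and 7.99 to 9.97% lower in both. Protein-coding sums, centring, a filter on the average detected share, and leaving out D205 and D329 were chosen after seeing the data.

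Adcy3 moved from 0.33 over all cells to -1.32 within D316 to D434. Among the values that turned in direction were Pde4a within D316 to D434 (-0.97), S100a5 within D213 to D274 (-1.14) and summed receptor RNA within both (-0.54 and -0.73). The cause was not tested. With each cell of a range left out in turn, chosen after seeing the data, receptor RNA ran from -0.86 to -0.29 within D213 to D274 and from -1.76 to 0.95 (without D329) within D316 to D434. Pde4a ran from -1.08 (without D233) to 0.95 and from -1.77 to -0.011 (without D329), and Adcy3 from 0.12 to 1.14 and from -1.82 to -0.83. Gap43 ran from -0.17 to 0.046 (without D230) within D213 to D274, Gng8 from -0.73 to 0.038 (without D406) within D316 to D434, and S100a5 from -1.83 to -0.54 within D213 to D274. Of the values of main results under an alternative, 156 stayed within the spread over cells or 1.5 times the count, 34 moved further and 11 turned in direction. Of those of single lists or genes 460 stayed, 5 moved and 3 turned. No paired analysis was possible because the labels give no replicate numbers shared between stages. Most Gap43 and Gng8 values rest on few fragments.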
